A study of Mus musculus with 9 samples.

Results

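Protein hormones made by muscle or released under cell stress were followed at the level of their messenger RNA in cultured mouse myotubes: Fndc5, Mstn, Il15, Metrnl, Fgf21, Gdf15, Fstl1, Bdnf, Apln and Gdf11. They were chosen by name, with earlier results of these data known, as 10 of the 55421 genes in the deposited tables. All 10 were measured and tested. Gdf15 was the member that differed most between the viruses. It averaged 304 ± 50.5 scaled reads with a truncated PGC-1α, 1122 ± 155 with full-length PGC-1α and 208 ± 16.7 with the control virus (SD, n = 3 libraries each). Fgf21, the other stress hormone of the set, moved the opposite way, at 3281 ± 237 with the truncated form, 3010 ± 143 with the full-length form and 6105 ± 695 with the control virus.

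The cells were C2C12, a mouse myoblast line, differentiated for 4 days into myotubes and exposed for 4 h to an adenovirus at a multiplicity of infection of 3. RNA was taken at 48 h. The dCTD virus carried PGC-1α without its C-terminal domain, the FL virus carried full-length PGC-1α, and the LacZ virus carried a bacterial enzyme as the control. All 3 viruses carried an HA-Flag tag, and each was used in 3 libraries that the design describes as biological replicates. dCTD and FL were each compared with LacZ, and dCTD was compared with FL for the difference that goes with the domain. The model is 1 cell line with virus-driven expression far above the cell's own.

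Myokines are proteins that muscle releases to act on itself or on other organs. Fndc5 encodes the membrane precursor of irisin and Metrnl the secreted meteorin-like protein, both described as induced through PGC-1α and as acting on fat tissue. Mstn and Gdf11 encode close relatives of the TGF-β family, of which myostatin restrains muscle growth, and Fgf21 and Gdf15 encode hormones that muscle and liver release under mitochondrial or amino acid stress.

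Ppargc1a, the gene for PGC-1α, had 100543, 121631 and 116095 scaled reads in the dCTD libraries, 227297, 198071 and 209100 in the FL libraries, and 408, 383 and 399.7 in the LacZ libraries. A scaled read count is the number of reads divided by a size factor that puts all 9 libraries on 1 scale. In every library these counts matched the label of a PGC-1α virus or of LacZ. Reads over the deleted domain were not examined, so the dCTD label was not checked against the FL label. The dCTD count was below the FL count (log2 fold change -0.91 ± 0.07, SE; limma, adjusted p = 2.0e-06). Transgene and endogenous reads were not separated, and the counts were not corrected for the shorter dCTD transgene. How far fewer reads meant fewer transcripts was not tested. A difference between dCTD and FL thus goes with the deletion and with the Ppargc1a level, and these cannot be told apart. Depth was 87090490 to 110673140 reads with dCTD, 99906750 to 123446198 with FL and 110309704 to 118931863 with LacZ. LacZ replicate 1 stood apart from the other LacZ libraries, with a mean chi-square of 18.5 and 19.6 per gene against them, where the other pairs of replicates lay between 7.43 and 13.8. It was the highest LacZ library for 3 members and the lowest for 5.

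Promoters of 9 of the 10 members stood in the RefSeq table used here (GRCm38.p6), in 16 windows of 300 bases, from 250 before to 50 after each start. Il15 was not among them. The windows of Fgf21 and Gdf15 are shown because these stress hormones moved in opposite directions, and that of Fndc5 because it is the member most often tied to PGC-1α. Each is written 5′ to 3′ on the strand of the gene, and capitals mark a match to a searched motif. The Fgf21 window is chr7:45615441-45615740 on the minus strand, the Gdf15 window is chr8:70632407-70632706 on the minus strand, and the Fndc5 window is chr4:129136749-129137048 on the plus strand.
Fgf21: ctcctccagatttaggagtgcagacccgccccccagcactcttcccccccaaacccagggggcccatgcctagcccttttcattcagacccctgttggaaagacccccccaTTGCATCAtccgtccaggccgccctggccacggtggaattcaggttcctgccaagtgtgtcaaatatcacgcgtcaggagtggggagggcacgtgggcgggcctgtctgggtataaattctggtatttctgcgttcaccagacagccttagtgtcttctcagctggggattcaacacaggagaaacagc
Gdf15: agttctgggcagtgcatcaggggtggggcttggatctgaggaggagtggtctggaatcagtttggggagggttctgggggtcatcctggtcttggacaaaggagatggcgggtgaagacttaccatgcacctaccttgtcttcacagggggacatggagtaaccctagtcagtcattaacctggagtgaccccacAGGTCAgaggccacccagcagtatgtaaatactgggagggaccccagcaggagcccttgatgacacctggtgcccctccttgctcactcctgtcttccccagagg
Fndc5: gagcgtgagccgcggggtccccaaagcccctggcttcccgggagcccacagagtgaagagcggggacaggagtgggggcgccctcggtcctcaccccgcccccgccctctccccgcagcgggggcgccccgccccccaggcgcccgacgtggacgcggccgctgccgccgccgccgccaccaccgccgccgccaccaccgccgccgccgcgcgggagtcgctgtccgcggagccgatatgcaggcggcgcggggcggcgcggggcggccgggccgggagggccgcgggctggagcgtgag

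The motifs were searched on both strands. They were TGATGNAA, the composite element of ATF4 and C/EBP, TGACGTCA, the cAMP response element, TNAAGGTCA, the element of the estrogen-related receptors, and AGGTCA, the nuclear receptor half-site that the previous one contains. Of 32851 windows in the table, 3.97% held the first, 1.79% the second, 1.28% the third and 16.3% the fourth. In Fgf21 the capitals, TTGCATCA, are the first motif read from the opposite strand, and the match begins 139 bases before the start. In the Gdf15 window shown, the capitals are the half-site, which begins 55 bases before the start. The Fndc5 window held none of the 4 motifs, and 82.3% of its bases are G or C, against a median of 52.7% over all windows. Among the remaining windows of members, 2 of Bdnf held a match, 1 to the half-site and 1 to the first motif, and the others held none. A match is a description of these letters and not evidence of binding.

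Gdf15 (ENSMUSG00000038508, chromosome 8, 70629393 to 70632456, minus strand, mm10) encodes a hormone that rises with cell stress and lowers food intake. Its scaled read count was 347, 248.7 and 317 in the dCTD libraries, 1000.04, 1069 and 1296 in the FL libraries, and 206, 193 and 226 in the LacZ libraries. The FL libraries were far above all others, and the dCTD libraries lay above the LacZ libraries without overlap. The log2 fold change was 0.53 ± 0.11 for dCTD over LacZ (limma, adjusted p = 0.00044) and 2.42 ± 0.09 for FL over LacZ (adjusted p = 2.5e-19), which is 1.44-fold and 5.35-fold. dCTD over FL gave -1.88 ± 0.13 (adjusted p = 4.7e-07), a level 3.69-fold lower with dCTD. Both comparisons with LacZ use the same LacZ libraries. Each fold against LacZ was computed within the deposited table that holds both groups, and dCTD over FL on the shared scale.

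Fgf21 (ENSMUSG00000030827, chromosome 7, 45613886 to 45615490, minus strand) encodes a hormone that acts on fat and brain through FGF receptors and β-Klotho. It had 3456, 3011 and 3375 scaled reads in the dCTD libraries, 2909, 3175 and 2947 in the FL libraries, and 6873, 5520 and 5923 in the LacZ libraries. Every dCTD and every FL library was below every LacZ library. It fell with dCTD (-0.90 ± 0.08; limma, adjusted p = 4.6e-06) and with FL (-1.01 ± 0.08; adjusted p = 1.6e-06), levels 1.87-fold and 2.02-fold lower than with LacZ. LacZ replicate 1 was the highest LacZ library, and without it the log2 fold changes were -0.81 for dCTD and -0.93 for FL. Between dCTD and FL the libraries overlapped. The difference of 0.12 ± 0.05 passed the threshold (adjusted p = 0.043) but did not without dCTD replicate 1 (0.217) or 3 (0.138), or FL replicate 1 (0.176) or 3 (0.137), nor with DESeq2 (0.0506).

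**Figure D1:**
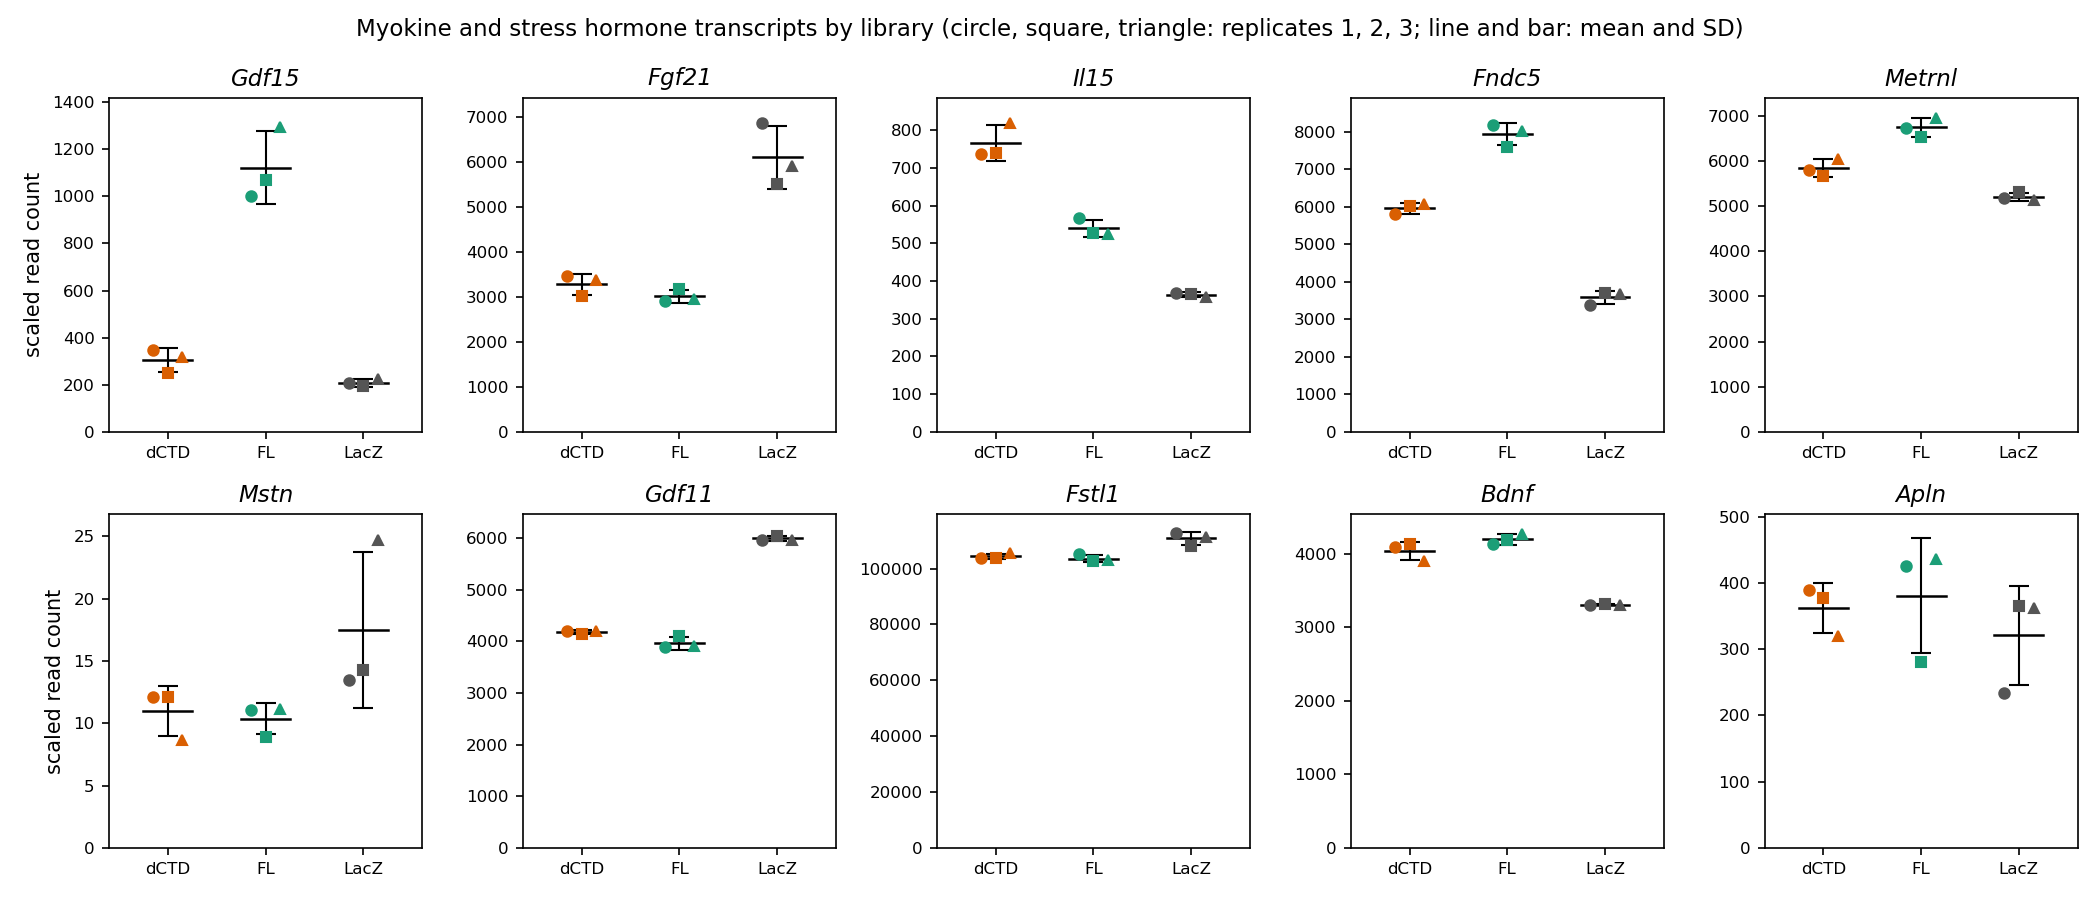
Scaled read counts of the 10 members (vertical axes, each from 0) in the dCTD, FL and LacZ libraries, with 1 point per library and the mean ± SD of 3. Gdf15 stands at 1000.04 to 1296 with FL and at 193 to 347 elsewhere, while Fgf21 stands at 5520 to 6873 with LacZ and at 2909 to 3456 with either form of PGC-1α.

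Il15 (ENSMUSG00000031712, chromosome 8, 82331632 to 82403222, minus strand) encodes a cytokine that sustains natural killer and memory T cells and is made by muscle fibres. Its scaled read count was 737, 740.0 and 820.5 in the dCTD libraries, 567, 528 and 525 in the FL libraries, and 368, 366 and 357 in the LacZ libraries. The 3 groups did not overlap, and dCTD was the highest. Il15 rose with dCTD by 1.06 ± 0.07 (limma, adjusted p = 7.3e-12) and with FL by 0.57 ± 0.07 (adjusted p = 1.1e-07), both on the log2 scale. Its level with dCTD was above that with FL by 0.50 ± 0.07 (adjusted p = 3.6e-07), the opposite order to Gdf15 and Fndc5.

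Fndc5 (ENSMUSG00000001334, chromosome 4, 129136999 to 129144593, plus strand) had 5789, 6003 and 6081 scaled reads in the dCTD libraries, 8173, 7597 and 8019 in the FL libraries, and 3368, 3695 and 3667 in the LacZ libraries. The groups were separate, with dCTD between FL and LacZ. The gene rose 1.66-fold with dCTD (log2 fold change 0.73 ± 0.04; limma, adjusted p = 6.2e-13) and 2.22-fold with FL (1.15 ± 0.04; adjusted p = 1.3e-20), and dCTD was below FL by 0.41 (-0.41 ± 0.04; adjusted p = 1.7e-10).

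Metrnl (ENSMUSG00000039208, chromosome 11, 121701544 to 121716306, plus strand) had the same order with smaller steps. It stood at 5801, 5664 and 6058 scaled reads with dCTD, 6749, 6545 and 6959 with FL, and 5178, 5314 and 5130 with LacZ. No group overlapped another. The log2 fold changes were 0.16 ± 0.04 for dCTD over LacZ (limma, adjusted p = 0.0022), 0.37 ± 0.04 for FL over LacZ (adjusted p = 7.7e-10) and -0.21 ± 0.04 for dCTD over FL (adjusted p = 3.6e-05).

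Gdf11 (ENSMUSG00000025352, chromosome 10, 128882295 to 128891718, minus strand) encodes the TGF-β family ligand closest to myostatin. It had 4191, 4136 and 4206 scaled reads in the dCTD libraries, 3885, 4107 and 3901 in the FL libraries, and 5962, 6042 and 5966 in the LacZ libraries. It fell with dCTD by 0.53 (-0.53 ± 0.04; limma, adjusted p = 2.7e-11) and with FL by 0.60 (-0.60 ± 0.04; adjusted p = 2.6e-14). dCTD and FL lay close together, at a difference of 0.08 ± 0.04 that did not pass (adjusted p = 0.12), although the libraries did not overlap. When libraries were scaled by their total reads without Ppargc1a, that difference was 0.14 and passed (adjusted p = 0.0034).

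Mstn (ENSMUSG00000026100, chromosome 1, 53061640 to 53068079, plus strand) encodes myostatin and was nearly silent. It had 12, 10 and 9 reads in the dCTD libraries, 10, 10 and 10 in the FL libraries, and 15, 15 and 28 in the LacZ libraries. The scaled counts of both PGC-1α groups were below those of LacZ without overlap, but neither difference passed the test. The log2 fold change was -0.60 ± 0.33 for dCTD over LacZ (limma, adjusted p = 0.148, 95% interval -1.28 to 0.08) and -0.66 ± 0.33 for FL over LacZ (adjusted p = 0.0841, -1.32 to 0.01). dCTD over FL was 0.07, with an interval of -0.68 to 0.81 (adjusted p = 0.91). With total-read scaling FL over LacZ passed, at -0.74 (adjusted p = 0.0495). At these counts a change in Mstn of this size was at the limit of detection.

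Fstl1 (ENSMUSG00000022816, chromosome 16, 37776873 to 37836514, plus strand) encodes a secreted glycoprotein of the follistatin family. It was the most abundant member, with 103894, 103892 and 105529 scaled reads in the dCTD libraries, 105053, 102602 and 102996 in the FL libraries, and 112914, 108188 and 111321 in the LacZ libraries. Both PGC-1α groups lay below LacZ without overlap, by 1.07-fold each. FL over LacZ passed (-0.10 ± 0.04; limma, adjusted p = 0.026) and dCTD over LacZ did not (-0.09 ± 0.04; adjusted p = 0.053), at nearly equal sizes. The FL call was lost without FL replicate 2 (0.0827) or 3 (0.0939) and without LacZ replicate 1 (0.0697) or 3 (0.0641), and the authors' deposited table gives dCTD over LacZ an adjusted p of 0.0165.

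Bdnf (ENSMUSG00000048482, chromosome 2, 109674700 to 109727007, plus strand) encodes brain-derived neurotrophic factor, which muscle also makes. It had 4088, 4133 and 3899 scaled reads in the dCTD libraries, 4128, 4188 and 4274 in the FL libraries, and 3306, 3312 and 3306 in the LacZ libraries. It rose with dCTD by 0.28 ± 0.04 (limma, adjusted p = 3.9e-06) and with FL by 0.34 ± 0.04 (adjusted p = 8.6e-09), while the dCTD and FL libraries overlapped (-0.06 ± 0.04; adjusted p = 0.27, 95% interval -0.13 to 0.02). Of its exon bases, 14.4% are shared with an antisense gene, Gm45346, which had at most 8 reads in a library.

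Apln (ENSMUSG00000037010, chromosome X, 48025146 to 48034853, minus strand) encodes apelin, a peptide that acts on vessels and muscle. Its scaled read count was 389.6, 377 and 319.9 in the dCTD libraries, 426, 280.4 and 436 in the FL libraries, and 234, 365 and 363 in the LacZ libraries. All groups overlapped and no comparison passed. The log2 fold change was 0.19 ± 0.16 for dCTD over LacZ (limma, adjusted p = 0.370), 0.25 ± 0.28 for FL over LacZ (adjusted p = 0.497) and -0.05 ± 0.16 for dCTD over FL (adjusted p = 0.855). FL replicate 2 and LacZ replicate 1 were each well below the other libraries of their group. Without LacZ replicate 1 dCTD over LacZ was -0.02, and without FL replicate 2 dCTD over FL was -0.26 and passed (adjusted p = 0.038).

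In all, 7 of the 10 members passed for dCTD against LacZ, where 5 rose and 2 fell, beside 44.8% of all 18066 genes tested. For FL against LacZ 8 passed, 5 upward and 3 downward, beside 59.2% of 18227 genes. For dCTD against FL 5 passed, 2 higher and 3 lower with dCTD, beside 40.2% of 18129 genes. Since so many genes passed, these counts do not set the members apart. Of all genes that passed, 52.2% were higher with FL than with LacZ and 44.3% were higher with dCTD than with FL, and with libraries scaled by total reads without Ppargc1a these shares were 39.1% and 63.3%. The members kept 5 upward calls with FL under that scaling, and dCTD against FL then had 4 higher and 3 lower. The libraries of the groups did not overlap for 9 members with dCTD and LacZ, 9 with FL and LacZ and 5 with dCTD and FL, beside 52.3%, 64.1% and 48.8% of all genes tested. The median log2 fold change of the members was 0.17, 0.30 and -0.02 in the 3 comparisons, in that order, and that of all tested genes was -0.01, -0.01 and 0.00. A change of at least 2-fold that passed was seen for 1 member with dCTD over LacZ, Il15, beside 6.95% of all genes. With FL over LacZ it was seen for 3 members, Gdf15, Fndc5 and Fgf21, beside 13.0%, and with dCTD over FL for 1, Gdf15, beside 4.77%.

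**Figure D2:**
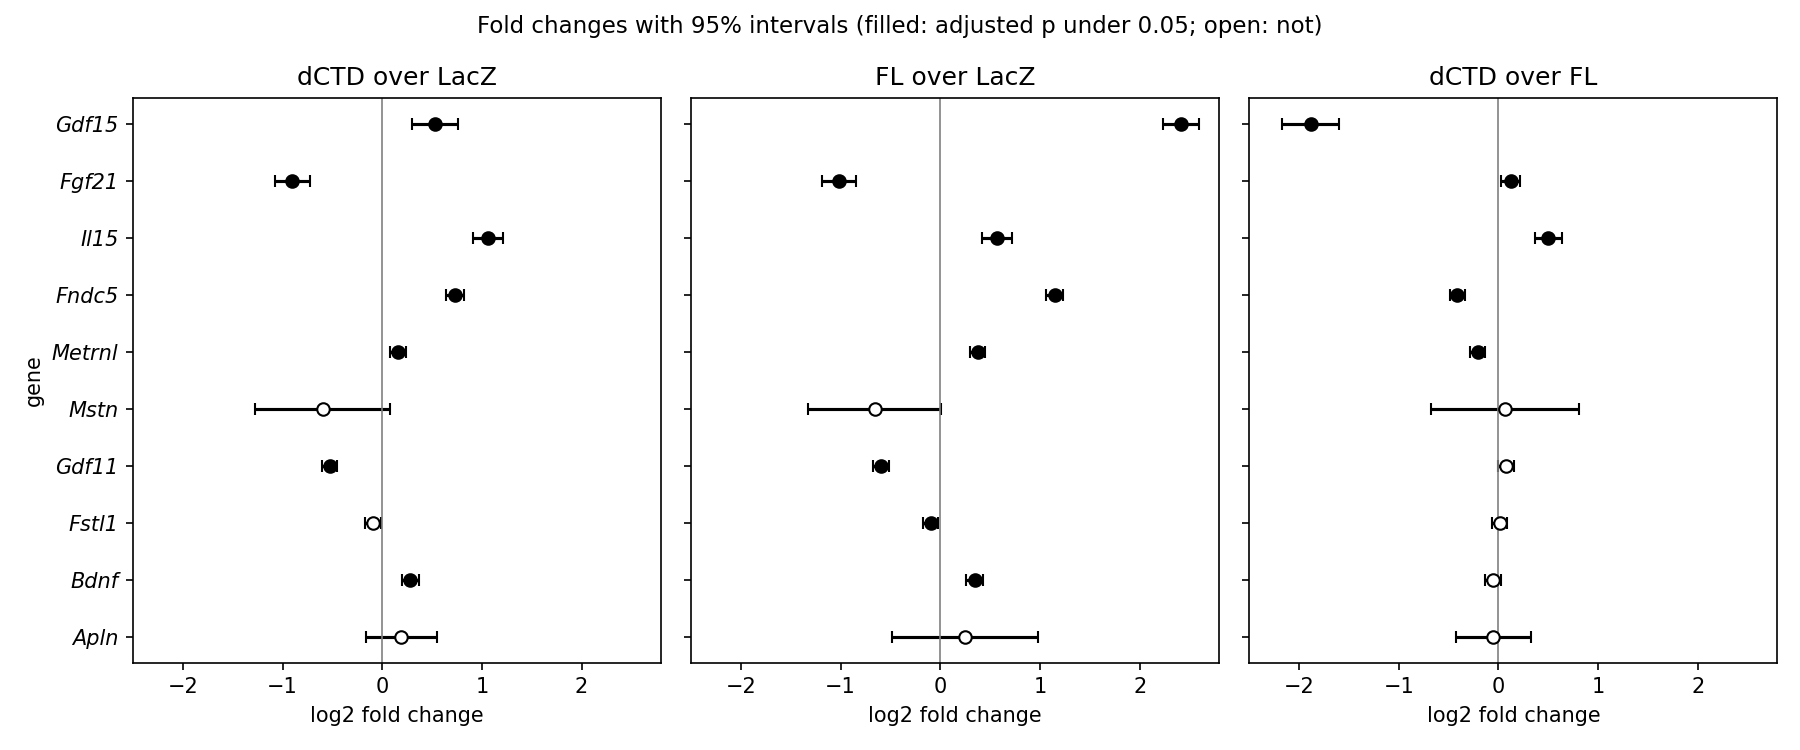
Log2 fold changes of the 10 members (horizontal axes) with 95% intervals from limma for dCTD over LacZ, FL over LacZ and dCTD over FL, 3 libraries per group, filled where the adjusted p is under 0.05. Gdf15 stands alone at -1.88 for dCTD over FL, while Il15 lies on the other side at 0.50.

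Levels between genes were compared per kilobase of exon. Fstl1 was the highest in every group, at 21253 scaled reads per kilobase with dCTD, 21072 with FL and 22549 with LacZ, and Mstn the lowest, at 4.06, 3.84 and 6.47 in the same order of groups. Fgf21 ranked 3 of 10 with dCTD, 3 with FL and 2 with LacZ. Fndc5 ranked 4 with dCTD, 4 with FL and 5 with LacZ, where Gdf11 stood above it. Gdf15 ranked 8 with dCTD, 7 with FL and 8 with LacZ. Neighbours in the order whose libraries overlapped were Metrnl and Fgf21 with dCTD, Bdnf and Gdf15 with FL, and Gdf15 and Apln with LacZ. All other neighbours were separate.

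For the members that changed at least 2-fold against LacZ, the genes with the most similar profile over the 9 libraries were found among 12231 genes, by the root mean square difference of log2 values after subtracting each gene's LacZ mean. They were Mrpl30 (0.03) and Pdha1 (0.04) for Fndc5, Themis (0.08) and Synpo2l (0.09) for Fgf21, Tatdn3 (0.10) and Mterf2 (0.11) for Il15, and Acot2 (0.17) and Tinagl1 (0.19) for Gdf15. Mrpl30 encodes a protein of the mitochondrial ribosome and Pdha1 a subunit of pyruvate dehydrogenase. Acot2, a mitochondrial acyl-CoA thioesterase, was above its LacZ mean by 0.51 with dCTD and 2.25 with FL, where Gdf15 was above its own by 0.53 and 2.42.

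The receptors of these hormones moved in both directions. Of 17 receptor and co-receptor genes, 12 were tested for dCTD against LacZ, where 2 rose and 7 fell. For FL against LacZ 4 of 13 rose and 6 fell, and for dCTD against FL 4 of 13 were higher and 3 lower. Of all tested genes, 23.1% rose and 21.7% fell with dCTD over LacZ, 30.9% rose and 28.3% fell with FL over LacZ, and 17.8% were higher and 22.4% lower with dCTD over FL.

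Il15ra, which encodes the receptor chain that binds IL-15 and presents it to neighbouring cells, had the largest change among the receptors. It had 432, 469 and 491 scaled reads in the dCTD libraries, 956, 827 and 955 in the FL libraries, and 18.9, 41.0 and 42.4 in the LacZ libraries. The log2 fold change was 3.80 ± 0.27 for dCTD over LacZ (limma, adjusted p = 3.1e-06) and 4.79 ± 0.35 for FL over LacZ (adjusted p = 0.00016). dCTD over FL was -0.97 ± 0.07 (adjusted p = 1.5e-12), so that dCTD was below FL for Il15ra and above it for its ligand. The signalling chains fell with both forms, Il2rb by 0.78 with dCTD and 0.74 with FL (-0.78 ± 0.09 and -0.74 ± 0.09), and Il2rg by 1.04 with dCTD and 0.85 with FL (-1.04 ± 0.14 and -0.85 ± 0.14). Il2rg shares 30.5% of its exon bases with another gene, Gm20489, and its counts are uncertain to that extent.

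The receptor of GDF15 is a pair of GFRAL, which binds the hormone, and RET, which signals. Gfral had 7, 6 and 3 reads in the dCTD libraries, 70, 91 and 94 in the FL libraries, and 7, 4 and 7 in the LacZ libraries. The FL libraries stood above all others, and the dCTD and LacZ libraries overlapped, with 16 reads over the dCTD libraries and 18 over the LacZ libraries. The gene passed the filter on low values only through the FL libraries, so its tests are not given as support, and it is among the receptor genes counted above for both comparisons with FL libraries. Ret had 143, 149 and 143 scaled reads in the dCTD libraries, 343, 258 and 335 in the FL libraries, and 77.3, 92.6 and 74.1 in the LacZ libraries. It rose with dCTD by 0.83 ± 0.13 (limma, adjusted p = 1.2e-05) and with FL by 1.92 ± 0.12 (adjusted p = 2.6e-14). The groups of Ret did not overlap and had the order of Gdf15, whereas for Gfral dCTD and LacZ were not separate.

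Receptors of the TGF-β family, through which myostatin and GDF11 signal, fell by less than 2-fold. Acvr2a, an activin type II receptor, had a log2 fold change of -0.18 ± 0.04 for dCTD over LacZ, -0.35 ± 0.04 for FL over LacZ and 0.18 ± 0.04 for dCTD over FL. For Tgfbr1, a type I receptor, the values were -0.28 ± 0.04, -0.41 ± 0.04 and 0.14 ± 0.04, and all 6 passed (limma, adjusted p at most 0.0046). Klb (the FGF21 co-receptor β-Klotho), Fgfr1 (an FGF receptor) and Ntrk2 (the main BDNF receptor) are named here outside the naming rule. Fgfr1 averaged 22901 scaled reads with dCTD, 23801 with FL and 22808 with LacZ. It passed in neither comparison with LacZ (limma, adjusted p = 0.98 with dCTD and 0.18 with FL). Klb had 10 reads over the dCTD libraries, 10 over the FL libraries and 8 over the LacZ libraries, and Ntrk2 had 0 in every library, which allows up to 3 reads per library.

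**Figure D3:**
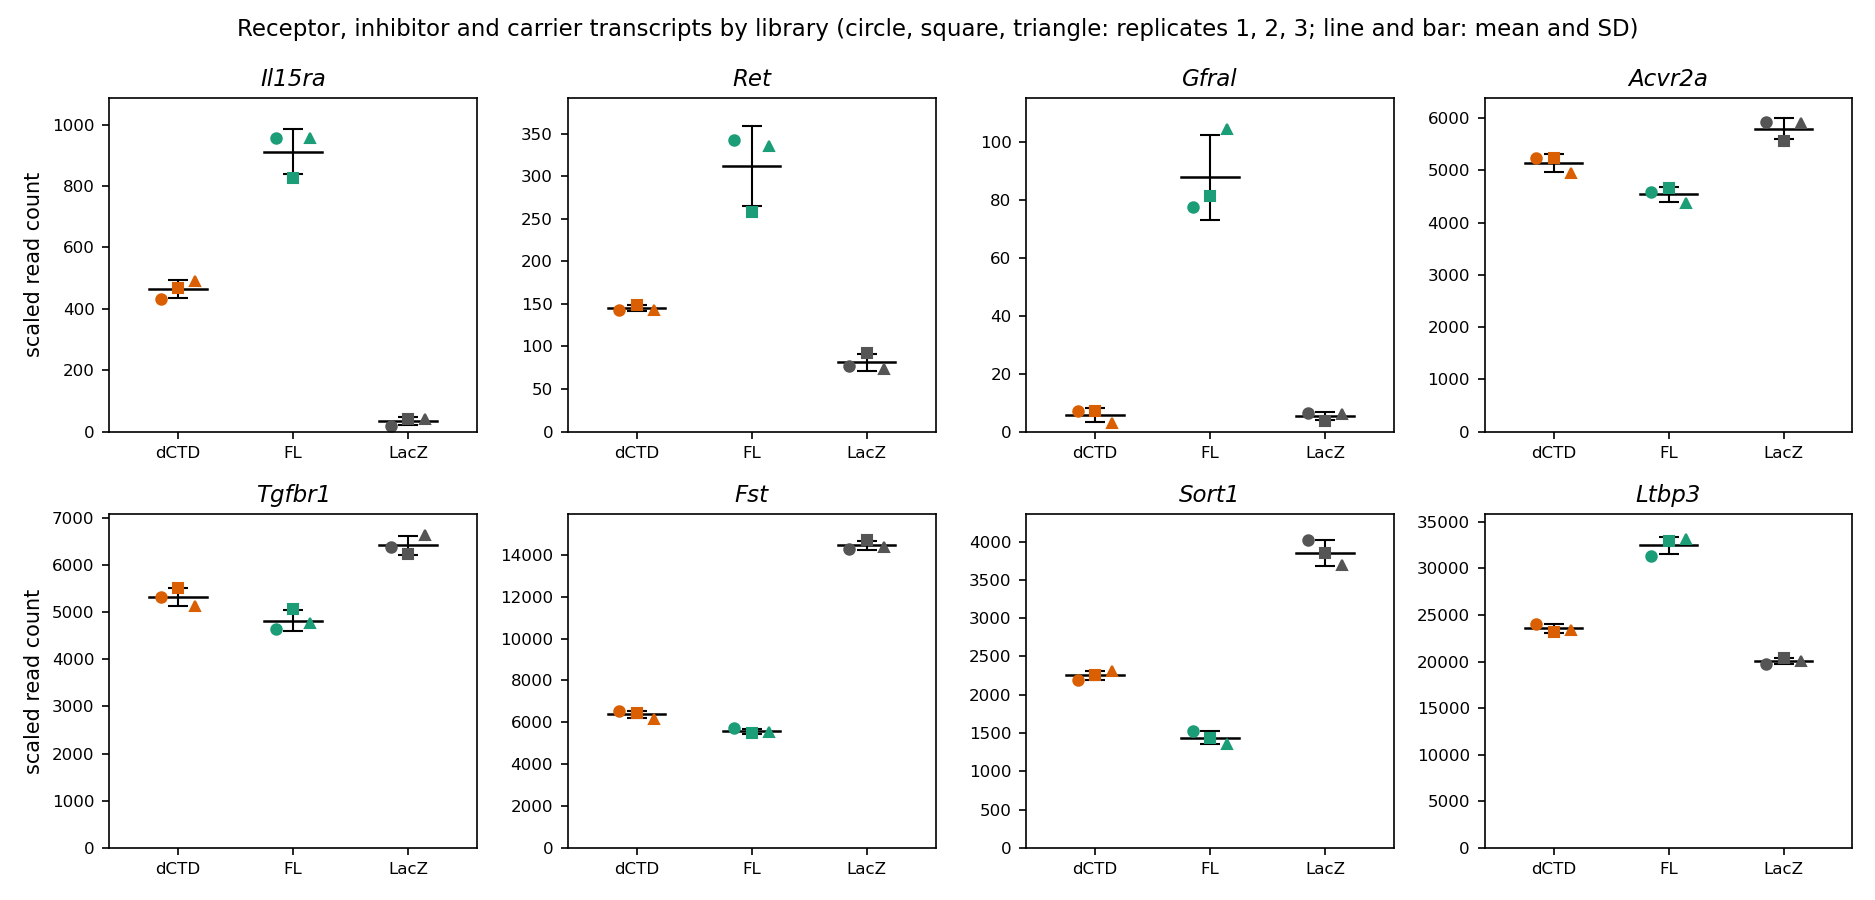
Scaled read counts (vertical axes, each from 0) of 5 receptor genes, the inhibitor gene Fst, the sorting receptor gene Sort1 and the carrier gene Ltbp3 in the dCTD, FL and LacZ libraries, 1 point per library with mean ± SD of 3. Il15ra, Ret and Gfral are highest with FL, and Fst and Sort1 are highest with LacZ.

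Proteins that process, carry or block these hormones were read from 14 genes, of which 12 were tested. For dCTD against LacZ 2 rose and 4 fell, for FL against LacZ 2 rose and 5 fell, and for dCTD against FL 3 were higher and 1 lower. Of all tested genes, 23.1% rose and 21.7% fell with dCTD over LacZ, and 30.9% rose and 28.3% fell with FL over LacZ. Between the 2 forms, 17.8% were higher and 22.4% lower with dCTD. With libraries scaled by total reads without Ppargc1a, 7 of the 12 fell in each comparison with LacZ. Fst, which encodes follistatin, the extracellular inhibitor of myostatin, GDF11 and activins, had 6519, 6445 and 6159 scaled reads in the dCTD libraries, 5713, 5481 and 5531 in the FL libraries, and 14294, 14718 and 14357 in the LacZ libraries. It fell by 1.19 with dCTD (-1.19 ± 0.04; limma, adjusted p = 5.3e-18) and by 1.37 with FL (-1.37 ± 0.04; adjusted p = 4.2e-24), so a ligand of this branch, Gdf11, and its inhibitor were both lower than with LacZ. Wfikkn2, which encodes another inhibitor of myostatin and GDF11, was also lower (-2.14 ± 0.26 with dCTD and -1.44 ± 0.18 with FL, at under 120 scaled reads). The log2 fold change of Fstl3, a follistatin-like inhibitor, was -0.32 ± 0.04 for dCTD over LacZ and -0.21 ± 0.04 for FL over LacZ, although 47.3% of its exon bases are shared with the antisense gene Prss57.

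Sort1 encodes sortilin, which sorts the BDNF precursor. It had 2195, 2259 and 2307 scaled reads with dCTD, 1531, 1430 and 1357 with FL, and 4016, 3848 and 3688 with LacZ. It fell by 0.78 with dCTD and 1.42 with FL (-0.78 ± 0.04 and -1.42 ± 0.05), and dCTD was above FL by 0.65 ± 0.05 (limma, adjusted p = 2.9e-12). Ltbp3, which encodes a latent TGF-β binding protein, ran the other way, at 0.22 ± 0.04 for dCTD over LacZ, 0.69 ± 0.04 for FL over LacZ and -0.46 ± 0.04 for dCTD over FL (adjusted p at most 2.2e-05).

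Of 20 genes that regulate the stress hormones or Fndc5, mark the stress response or act downstream of myostatin, all were tested. With dCTD 5 rose and 3 fell against LacZ, beside 23.1% and 21.7% of all tested genes. With FL 14 rose and 1 fell, beside 30.9% and 28.3%. Against FL, 0 were higher and 15 were lower with dCTD, beside the 22.4% of all genes that were lower. Of the 20, limma gave 1 higher at an unadjusted p under 0.05, edgeR gave 1 higher after adjustment and DESeq2 gave 0. With total-read scaling these splits were 5 and 3, 12 and 3, and 3 and 14. LacZ replicate 1 was the highest LacZ library for 14 of the 20, and without it 8 rose and 2 fell with dCTD, and 15 rose and 1 fell with FL. The list was chosen with earlier results of these data known, and it holds Ppara, Esrra and Tfam beside the stress genes. Its counts describe the list and are not a test of it.

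Atf3, a transcription factor induced by many stresses, had 1055, 1088 and 1110 scaled reads in the dCTD libraries, 7934, 7037 and 7639 in the FL libraries, and 951, 639 and 744 in the LacZ libraries. It was lower with dCTD than with FL by 2.79 (-2.79 ± 0.04; limma, adjusted p = 4.3e-28), and rose over LacZ by 0.49 ± 0.12 with dCTD and 3.29 ± 0.17 with FL. Ddit3, which encodes the stress factor CHOP, rose by 0.86 ± 0.06 with dCTD and 2.38 ± 0.06 with FL, and dCTD was below FL by 1.51 (-1.51 ± 0.04). The symbol Ddit3 is carried by 2 gene entries, and the values are of the one with more reads. That entry shares 6.13% of its exon bases with the other. Like Gdf15, Atf3 and Ddit3 were highest with FL, while Fgf21 was low with both forms. Not all stress genes of the list rose with FL, and Nupr1 and Eif2ak3 are named here outside the naming rule. Nupr1 fell with dCTD (-0.28 ± 0.05) and did not pass with FL (-0.01 ± 0.04; limma, adjusted p = 0.88). Eif2ak3 passed with neither form against LacZ (0.08 ± 0.04 with dCTD and -0.00 ± 0.04 with FL).

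Atf4, the transcription factor at the centre of the amino acid response, and its target Asns, asparagine synthetase, rose with FL and did not pass with dCTD. For Atf4 the log2 fold change was 0.05 ± 0.04 for dCTD over LacZ (limma, adjusted p = 0.37), 0.69 ± 0.04 for FL over LacZ and -0.63 ± 0.04 for dCTD over FL. For Asns it was -0.05 ± 0.06 (adjusted p = 0.56), 1.07 ± 0.07 and -1.11 ± 0.04. Without LacZ replicate 1, Atf4 passed for dCTD over LacZ at 0.10 (adjusted p = 0.0446). Ppara, a nuclear receptor that induces Fgf21 in mouse liver, rose by 1.26 ± 0.17 with dCTD and 3.64 ± 0.12 with FL, while Fgf21 fell with each. Whether Ppara acts on Fgf21 in these cells was not tested. Esrra, a partner of PGC-1α, rose by 1.81 ± 0.06 with dCTD and 2.696 ± 0.07 with FL, and Tfam, which encodes the mitochondrial transcription factor A, by 0.81 ± 0.04 and 1.46 ± 0.04, the order seen for Fndc5.

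**Figure D4:**
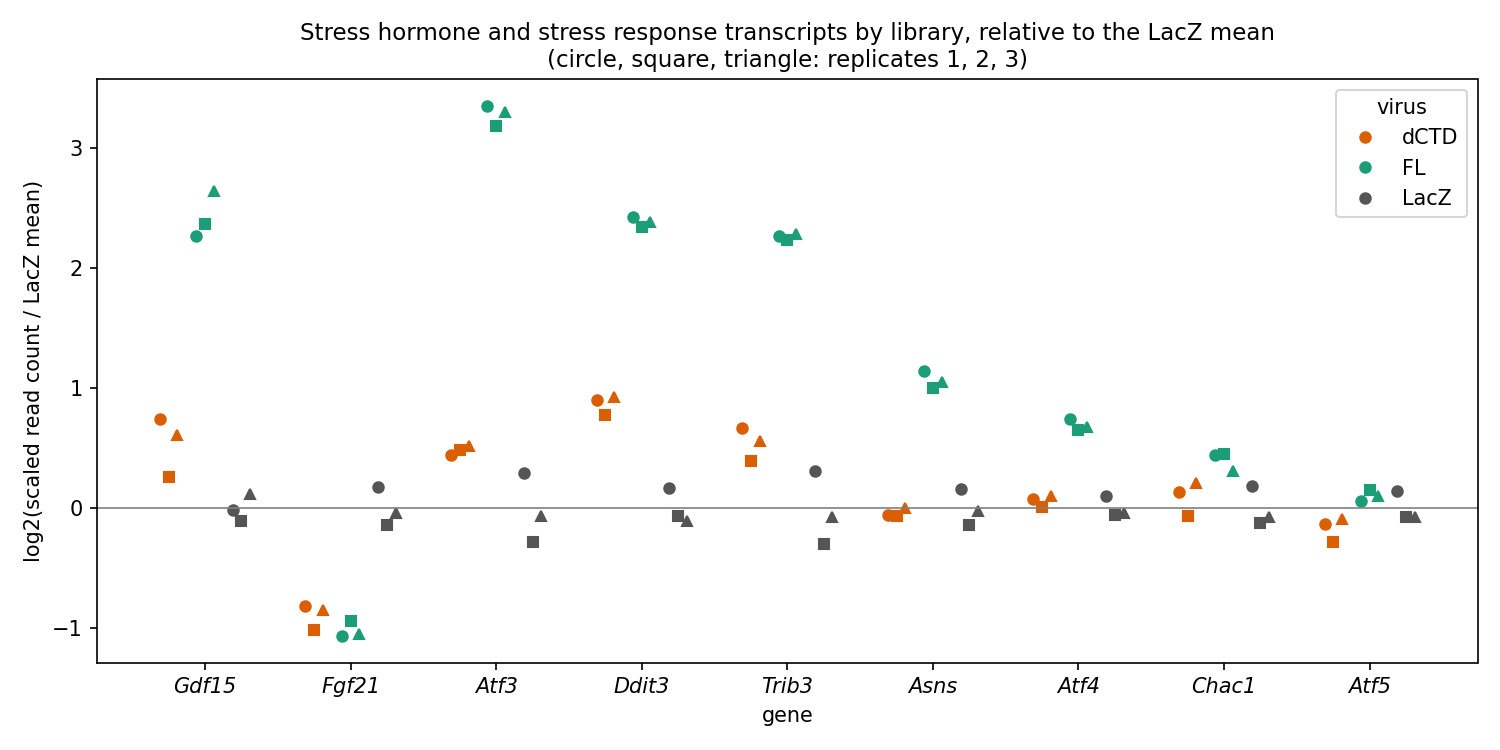
Level of Gdf15, Fgf21 and 7 stress response genes in each library, as the log2 ratio of its scaled read count to the LacZ mean (vertical axis), with 1 point per library. The FL libraries of Gdf15, Atf3 and Ddit3 stand above 2 and the dCTD libraries below 1, while Fgf21 is below 0 in every dCTD and FL library.

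Most markers of myotubes moved with the viruses. Of all genes tested, 44.8% were called for dCTD against LacZ, 59.2% for FL against LacZ and 40.2% for dCTD against FL, and the counts of myoblast and fibroblast markers do not set those lists apart from these shares. Of 10 myotube markers, 1 rose and 8 fell with dCTD, 0 rose and 9 fell with FL, and 6 were higher and 0 lower with dCTD than with FL. For the 0 with FL, limma gave 0 at an unadjusted p under 0.05, and edgeR and DESeq2 gave 0. For the 0 with dCTD against FL, limma gave 1 at an unadjusted p under 0.05, and edgeR and DESeq2 gave 0. Their summed scaled reads were 704759 to 738839 with dCTD, 592907 to 616557 with FL and 1076695 to 1126435 with LacZ, and none was at 0. Of 10 myoblast markers, 3 rose and 2 fell with dCTD and 4 rose and 2 fell with FL, while 0 were higher and 5 lower with dCTD than with FL by limma (0 at an unadjusted p under 0.05), 0 and 5 by edgeR, 1 and 3 by DESeq2, and 3 and 2 with total-read scaling. Their sums were 154567 to 161184 with dCTD, 157274 to 163709 with FL and 191179 to 198491 with LacZ. Itga7 alone averaged 85730 with dCTD, 81471 with FL and 123829 with LacZ, so these sums mostly follow that gene and not the list. Of 7 tested fibroblast markers, 1 fell with dCTD, 1 rose and 2 fell with FL, and 2 were higher and 2 lower with dCTD than with FL, which became 2 fallen, 0 risen and 4 fallen, and 3 higher and 0 lower with total-read scaling. The sums of all 8 were 1771557 to 1799901 with dCTD, 1856609 to 1943551 with FL and 2001286 to 2311440 with LacZ. Fn1 and Col3a1 made up most of these sums. None of 7 adipocyte markers was high enough to test, at a sum of at most 15.1 scaled reads with dCTD, 13.4 with FL and 6.68 with LacZ, and 1 of them, Cfd, was at 0 in every library. Fewer myotubes and less RNA per myotube cannot be told apart in bulk RNA, and the part of these shifts in the members' changes was not tested.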

How the data were processed

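RNA-seq libraries of polyadenylated RNA, stranded per the labels' protocols, were made from 3 cultures per virus. Per the submitters' processing notes the tools were STAR 2.7.2b, featureCounts 1.6.4, DESeq2 2.11.40.6, FastQC 0.72 and Trim Galore 0.4.3.1, and the build was mm10. Whether reads were counted by strand is not given in the sources used here. The authors deposited 2 tables, FL with LacZ and dCTD with LacZ, whose values are a signal: gene counts divided by a size factor, within each table. Whole reads were recovered for 100% of 317312 values above 0 (within 0.001 reads), and the LacZ reads differed at 0 genes between tables. The authors' log2 fold changes and p-values also stand in the deposited tables, per the file headers, and were used only where credited.

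Each form was compared with LacZ within its table by limma 3.58.1 (R 4.3.3, trend and robust options) on log2(value + 1), leaving out genes whose mean was under 10. dCTD and FL were compared on recovered reads after median-of-ratios scaling of all 9 libraries. A fold change on the log2(value + 1) scale is too small for genes with few reads. P-values are two-sided, adjusted by Benjamini-Hochberg over all tested genes, with a threshold of 0.05. They weigh the difference between groups against the spread between 3 libraries per group, which limma moderates across genes. The limma steps were also run on simulated counts with far fewer changed genes than were called here. That run gives no error rate for these fits. Alternatives were edgeR 4.0.16 and DESeq2 1.42.0 on recovered reads, other pseudocounts (0.5 and 5), filters and scalings, a replicate term and leaving out each library. Start positions were converted to count from 1, and exon lengths came from the GENCODE annotation of GRCm38. Floors cover counting error only.

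The members, the gene lists and the markers were chosen with earlier results of these data known. By rule, all members are named, and of each list up to 4 genes per comparison with the smallest p. The in vitro RNA-binding assay in the design was not analysed here.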

Additional observations from a re-analysis of the deposited data

How the results depend on the processing

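Every member count kept within 1.5 times its value under all alternatives: 7 to 8 for dCTD against LacZ, 7 to 9 for FL against LacZ and 4 to 7 for dCTD against FL. Counts of all genes ranged from 7208 to 8315, 10034 to 11715 and 6252 to 8551. Over the members' fold changes under all alternatives, 409 values kept their direction and side of the threshold, 9 turned in direction, 8 gained the threshold and 11 lost it, most of these for Fstl1, Fgf21 between dCTD and FL, Apln and Mstn. None of the 9 that turned had passed the test. With 1 library left out, Mstn for dCTD over FL ranged from -0.029 to 0.21 (below 0 without dCTD replicate 1, dCTD replicate 2 or FL replicate 2), Apln for dCTD over LacZ from -0.019 to 0.30 (below 0 without LacZ replicate 1) and Apln for dCTD over FL from -0.26 to 0.063 (above 0 without dCTD replicate 3, FL replicate 1 or FL replicate 3). With total-read scaling dCTD over FL was 0.018 for Apln and 0.012 for Bdnf. The cause was not tested.

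Replicate numbers are shared between groups and were not used as pairs in the main fits. Correlations of deviations between same-numbered libraries ran from -0.067 to 0.073, below the 0.1 set for pairing. Such small values cannot show that there was no pairing. Each library correlated best with its own number for dCTD against FL, and not for the comparisons with LacZ. With the replicate block, 7396, 10720 and 7431 genes were called for dCTD against LacZ, FL against LacZ and dCTD against FL, and 7, 7 and 4 members, with Fstl1 for FL over LacZ (adjusted p = 0.0513) and Fgf21 for dCTD over FL (0.0710) not passing by limma. Only Mstn was limited by depth, with 58 reads or fewer per group.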

Other observations

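Other secreted factors of muscle and the nearest relatives of the members moved in both directions. Of 24 other myokine genes, 22 were tested for dCTD against LacZ, with 6 higher and 6 lower. For FL against LacZ 10 of 23 rose and 7 fell, and for dCTD against FL 4 of 23 were higher and 10 lower. The shares of all tested genes were 23.1% higher and 21.7% lower for dCTD against LacZ, and 30.9% and 28.3% for FL against LacZ. For dCTD against FL they were 17.8% and 22.4%. Vegfb, a vascular growth factor gene, had 2878, 2702 and 2999 scaled reads with dCTD, 5057, 5083 and 5137 with FL, and 1455, 1653 and 1503 with LacZ. It rose by 0.89 ± 0.05 with dCTD and 1.73 ± 0.05 with FL, and Vegfa, which drives vessel growth, by 0.56 ± 0.04 and 0.97 ± 0.04 (limma, adjusted p at most 4.9e-12). Ostn, which encodes the peptide musclin, had 37 reads over the dCTD libraries, 348 over the FL libraries and 5 over the LacZ libraries. It passed the filter on low values mainly through the FL libraries and was too low to test between dCTD and LacZ. No fold is given, and its tests are not given as support. Ostn is among the genes counted above as higher with FL than with LacZ and lower with dCTD than with FL. Nampt and Erfe, the genes of a NAD synthesis enzyme and of erythroferrone, rose by 0.26 ± 0.04 and 0.30 ± 0.06 with dCTD and by 0.56 ± 0.04 and 0.65 ± 0.05 with FL. Il18, a cytokine gene, fell by 0.47 with dCTD and 0.53 with FL (-0.47 ± 0.05 and -0.53 ± 0.06), and Chil1, a secreted chitinase-like protein gene, by 0.69 and 0.71 (-0.69 ± 0.10 and -0.71 ± 0.10). For Lgals1, the galectin-1 gene, dCTD was below FL by 0.46 (-0.46 ± 0.04).

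Of 18 relatives of the members, 11 were tested, with 2 higher and 7 lower for dCTD against LacZ, 3 higher and 5 lower for FL against LacZ, and 3 higher and 4 lower for dCTD against FL. Beside these counts, 23.1% of all tested genes were higher and 21.7% lower for dCTD against LacZ. For FL against LacZ the shares were 30.9% and 28.3%, and for dCTD against FL 17.8% and 22.4%. Fst and Fstl3 are in this list and also among the processing and inhibitor genes, so both lists count them. With total-read scaling 2 relatives were higher and 7 lower for FL against LacZ. Tgfb3, a TGF-β ligand gene, fell by 0.34 with dCTD and 0.50 with FL (-0.34 ± 0.04 and -0.50 ± 0.04). Metrn, the relative of Metrnl, rose by 0.34 ± 0.07 with dCTD and 0.60 ± 0.07 with FL, although 48.4% of its exon bases are shared with another gene on the opposite strand.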
